A study of Mus musculus with 4 samples.

Results

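The Hippo pathway was followed here through 9 genes whose chromatin accessibility was read by ATAC-seq in cultured mouse preadipocytes and in the beige adipocytes made from them. The genes were Yap1, Wwtr1, Tead1, Tead2, Tead3, Tead4, Ctgf, Cyr61 and Ankrd1. Every peak with its summit within 50 kb of an annotated transcription start site (TSS) of one of these genes was taken, and peaks of different libraries that shared at least 1 bp were merged into 1 site. This gave 140 sites of the 100608 in the series, for 9 of 33887 gene names in the mm9 annotation. The sites were chosen by position and not by their values.

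The Hippo kinases phosphorylate the coactivators YAP (Yap1) and TAZ (Wwtr1) and keep them out of the nucleus. When the kinases are inactive, as in spread and mechanically tense cells, YAP and TAZ enter the nucleus and bind DNA through the TEAD factors, which recognise a short element often found beside AP-1 sites. Ctgf, Cyr61 and Ankrd1 are the target genes most often used to read their activity, and TAZ is known to hold back the adipogenic factor PPARγ in mesenchymal cells.

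The cells, called im-scWAT, came from the stromal vascular fraction of subcutaneous white adipose tissue of 5-week-old mice and were immortalised with SV40 large T antigen delivered by a retrovirus. One culture was Jmjd1a +/+ (WT). The other was Jmjd1a HY/HY (HY), in which both alleles carry a tyrosine in place of a histidine. The study describes the resulting JMJD1A as defective in histone H3 lysine 9 demethylation. Nuclei were taken before differentiation on day 0 (D0) or on day 8 (D8), after 2 days of induction with indomethacin, dexamethasone, 3-isobutyl-1-methylxanthine, rosiglitazone, insulin and T3 and 6 days with insulin, T3 and rosiglitazone. There was 1 library per genotype and day, so every difference is one between 2 libraries, no p-value was computed, and differences between genotypes cannot be told apart from differences between 2 separately made cultures. The HY lists held 7 and 6 peaks on chromosome Y and the WT lists 1 each, a difference between the cultures that lies outside the Jmjd1a gene.

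The 4 lists held from 41228 peaks (WT D8) to 77994 peaks (HY D0), with 71523 in WT D0 and 48964 in HY D8. The height of a peak is given as its summit pileup, the number of overlapping tags at the summit, and was compared between libraries after division by the genome-wide background rate of the list (0.659 at D0 and 0.531 at D8 in WT and 0.708 and 0.494 in HY), which follows depth. The lowest pileup called as a peak was 4 in HY D8 and 5 in the others, and where no peak was called the pileup is unknown. Promoters of the marker lists went with the labels. A peak lay at the promoter of 6 and 5 of 6 preadipocyte genes at D0 (WT and HY) and of 2 of 6 at D8, and at the promoter of 1 of 6 adipocyte genes at D0 in both genotypes and of 5 of 6 at D8. No macrophage promoter of 4 had a peak in any library. Of 4 endothelial promoters, 3 and 2 had a peak at D0 and 0 and 1 at D8, of 4 muscle promoters 1 had a peak in WT D8 alone, and of 4 beige promoters 0 and 1 had a peak at D0 and 2 at D8. The Ucp1 promoter window held no peak in any list. In such bulk libraries fewer cells of a type and a lower signal per cell cannot be told apart.

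The sequences under the sites that carry the results are shown first, read 5′ to 3′ on the strand of the gene from the mm9 reference. Capitals mark the TEAD hexamer CATTCC (or its reverse complement GGAATG) and the AP-1 motif TGANTCA, which overlapped in none of the windows printed. The Ctgf and Cyr61 windows are the 200 bp before the TSS, shown because Ctgf had, in depth-scaled pileup, the steepest decrease of any member promoter that kept a peak and Cyr61 a difference within counting error. The Ankrd1 window is centred on the summit of a promoter that had a peak at D0 only.
Ctgf promoter (chr10:24315048-24315247, plus strand): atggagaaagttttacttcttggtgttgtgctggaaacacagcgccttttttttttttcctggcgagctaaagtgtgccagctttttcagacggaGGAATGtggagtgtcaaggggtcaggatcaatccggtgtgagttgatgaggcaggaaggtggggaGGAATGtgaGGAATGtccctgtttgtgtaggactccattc
Cyr61 promoter (chr3:145312950-145313149, minus strand): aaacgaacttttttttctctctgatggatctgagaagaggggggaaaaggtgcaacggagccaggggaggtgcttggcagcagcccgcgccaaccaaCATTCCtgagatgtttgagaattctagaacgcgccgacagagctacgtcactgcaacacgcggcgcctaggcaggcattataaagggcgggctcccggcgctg
Ankrd1 promoter (chr19:36194463-36194663, minus strand): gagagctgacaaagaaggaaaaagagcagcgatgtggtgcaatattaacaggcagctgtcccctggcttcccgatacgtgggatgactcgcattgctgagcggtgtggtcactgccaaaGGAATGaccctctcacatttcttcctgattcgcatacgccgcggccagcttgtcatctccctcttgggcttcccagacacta
The Ctgf window holds 3 copies of GGAATG. Among the 200 bp upstream of 22367 protein-coding gene records, 8.97% hold at least 1 TEAD hexamer on either strand and 8 genes (0.0358%) hold at least 3. The Cyr61 and Ankrd1 windows hold 1 hexamer each.

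The next windows, 201 bp centred on the strongest summit, are distal. The sites upstream of Ctgf and Cyr61 and in the Tead4 gene body hold both a TEAD hexamer and an AP-1 motif and were weaker or without a peak at D8. The Tead1 and Tead3 windows hold a TEAD hexamer, and the Wwtr1 window, from a site with a peak at D8 only, holds neither motif.
Ctgf 14.2 kb upstream (chr10:24300904-24301104, plus strand): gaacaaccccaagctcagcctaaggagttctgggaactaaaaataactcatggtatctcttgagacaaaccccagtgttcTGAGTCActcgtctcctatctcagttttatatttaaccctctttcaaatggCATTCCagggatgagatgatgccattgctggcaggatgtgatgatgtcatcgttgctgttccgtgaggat
Cyr61 26.5 kb upstream (chr3:145339321-145339521, minus strand): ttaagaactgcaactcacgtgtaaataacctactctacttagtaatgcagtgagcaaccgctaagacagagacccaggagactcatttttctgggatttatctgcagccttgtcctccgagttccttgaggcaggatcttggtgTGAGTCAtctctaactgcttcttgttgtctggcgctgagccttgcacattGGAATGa
Tead4 14.9 kb downstream of the gene start (chr6:128235825-128236025, minus strand): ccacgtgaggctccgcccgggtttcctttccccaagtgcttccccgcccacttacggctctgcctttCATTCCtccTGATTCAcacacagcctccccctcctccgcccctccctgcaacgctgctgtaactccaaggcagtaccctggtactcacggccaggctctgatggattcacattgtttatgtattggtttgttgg
Tead1 23.1 kb upstream (chr7:119799649-119799849, plus strand): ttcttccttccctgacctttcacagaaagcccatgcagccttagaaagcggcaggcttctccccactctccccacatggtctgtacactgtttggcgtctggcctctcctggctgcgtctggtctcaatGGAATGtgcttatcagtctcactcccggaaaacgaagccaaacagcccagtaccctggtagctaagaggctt
Tead3 43.5 kb upstream (chr17:28531191-28531391, minus strand): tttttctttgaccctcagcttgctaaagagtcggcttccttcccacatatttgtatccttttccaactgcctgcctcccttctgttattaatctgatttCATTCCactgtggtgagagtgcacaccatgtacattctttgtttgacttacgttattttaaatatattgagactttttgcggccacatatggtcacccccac
Wwtr1 1.63 kb downstream of the gene start (chr3:57378103-57378303, minus strand): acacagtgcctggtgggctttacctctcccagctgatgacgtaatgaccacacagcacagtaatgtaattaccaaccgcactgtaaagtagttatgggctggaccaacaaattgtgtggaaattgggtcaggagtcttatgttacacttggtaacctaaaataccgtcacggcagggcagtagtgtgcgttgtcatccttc

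Taking all 9 genes, more sites had a peak at D0 alone than at D8 alone, as in the whole series. In WT 57 of the 108 sites with a peak on either day had it at D0 only (52.8%) and 13 at D8 only (12.0%), beside 49.7% and 12.3% of all sites within 50 kb of any TSS. In HY 52 of 120 were D0 only (43.3%) and 22 were D8 only (18.3%), beside 46.5% and 13.7%. The members as a set were therefore near the background. They held 31 sites with a peak in all 4 libraries, 31 with a peak at D0 only in both genotypes, 7 with a peak at D8 only in both, and 49 seen in 1 library alone. The D0 lists were longer, and with all lists reduced to their 41228 strongest peaks the members had 18 of 69 D0-only and 19 of 69 D8-only sites in WT and 17 and 26 of 74 in HY, beside 28.6% and 25.6% of all sites in WT and 27.4% and 25.2% in HY.

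The counts are given by role next. Around the 6 genes for the coactivators and TEAD factors, 41.6% of sites in WT (32 of 77) and 40.0% in HY (36 of 90) were D0 only, beside 49.7% and 46.5% of all sites. D8-only sites made up 16.9% and 22.2% (13 and 20 sites), beside 12.3% and 13.7%. Whether these shares of the regulators differ from the background was not tested. Around the 3 targets, 80.6% in WT (25 of 31) and 53.3% in HY (16 of 30) were D0 only, and 0 of 31 and 2 of 30 were D8 only. The D0-only share of the targets thus stood well apart from the background in WT (49.7%), while in HY it was nearer to it (46.5%). In lists of equal length the order turned around for the regulators, with 7 D0-only and 19 D8-only sites of 52 in WT (13.5% and 36.5%) and 9 and 23 of 55 in HY (16.4% and 41.8%). The targets kept it, with 11 and 0 of 17 in WT (64.7% and 0%) and 8 and 3 of 19 in HY (42.1% and 15.8%). All sites shifted as well with equal lists, to 28.6% D0 only and 25.6% D8 only in WT and 27.4% and 25.2% in HY.

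**Figure D1:**
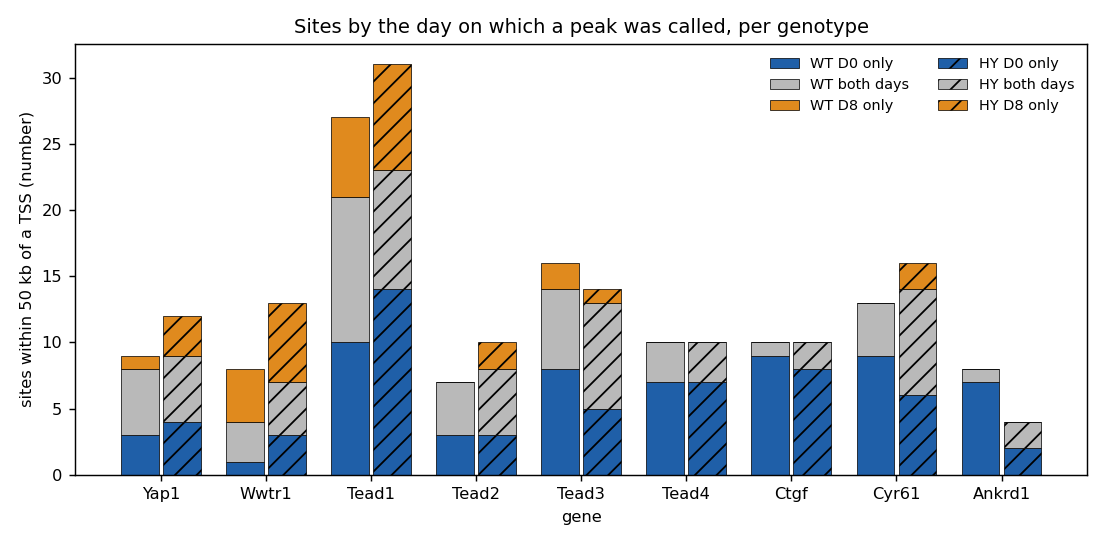
Number of sites within 50 kb of a TSS (vertical axis) for each of the 9 genes (horizontal axis), plain bars for WT and hatched bars for HY, divided into sites with a peak at D0 only (blue), on both days (grey) and at D8 only (orange). Ctgf, Ankrd1 and Tead4 bars have no orange part, while 4 of 8 Wwtr1 sites in WT and 6 of 13 in HY were D8 only. Of all sites within 50 kb of any TSS, 12.3% in WT and 13.7% in HY were D8 only.

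The counts also differed by position. Of the members' sites at the promoter of any gene, 2 of 20 in WT and 4 of 23 in HY were D0 only, beside 20.1% and 19.3% of all promoter sites. Of their distal sites, 55 of 88 in WT (62.5%) and 48 of 97 in HY (49.5%) were D0 only, beside 58.8% and 54.0%. The distal sites of the 3 targets gave 24 of 27 in WT (88.9%) and 14 of 24 in HY (58.3%), the latter near the 54.0% of all distal sites in HY. A promoter here is a summit from 1000 bp before to 100 bp after a TSS.

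At sites with a peak on both days, the members' depth-scaled pileups were lower at D8 by a median log2 D8/D0 of -0.35 in WT (38 sites, 27 lower) and -0.22 in HY (46 sites, 27 lower), beside -0.14 and -0.15 over all sites. Most of all such sites were lower too, 15047 of 24819 in WT and 17384 of 29272 in HY. At least a 2-fold lower pileup at D8 was found at 7 of 38 sites in WT and 8 of 46 in HY (18.4% and 17.4%), beside 13.3% and 15.5% of all sites, and at least a 2-fold higher one at 4 in each (10.5% and 8.70%), beside 4.39% and 5.08%. The median for the targets was -0.87 in WT over 6 sites and -0.64 in HY over 12, and for the regulators -0.19 over 32 and 0.07 over 34. After depth scaling all 6 target sites in WT and 11 of the 12 in HY were lower at D8, and none was 2-fold higher. By the deposited fold, which divides the summit by its local background, 4 of the 6 and 9 of the 12 were lower, and 0 of the 6 and 2 of the 12 were at least 2-fold lower, against 2 and 4 by the pileup. Over all 9 genes, 7 sites in WT and 7 in HY were lower at D8 with an interval that left out 0. By the fold 6 and 7 of these were lower too, 2 in each genotype at least 2-fold, against 5 and 7 by the pileup. Likewise 4 sites in WT and 2 in HY were higher with such an interval. All of these were higher by the fold, 1 and 2 at least 2-fold, against 4 and 2 by the pileup. The fold holds the same summit pileup, so a shared sign is not independent of how these sites were picked. The share of all sites with such an interval is not given here. These readings by the fold were chosen after seeing the data.

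Yap1 encodes YAP, the coactivator that gives the pathway its output. Of its 14 sites 10 lay in the gene and 4 upstream of the gene start, with 8 and 6 of the 14 called in WT at D0 and D8 and 9 and 8 in HY. The promoter was open throughout. The summit 148 bp upstream (chr9:8004322-8004952) had a pileup of 25 and 17 in WT (D0 and D8) and 34 and 23 in HY, and a second site 1074 bp downstream of the gene start, at a further TSS (chr9:8003355-8004024, exonic), had 16, 15, 25 and 19. Neither differed between days beyond counting error. The log2 D8/D0 values were -0.24 and -0.05 for the first and 0.22 and 0.12 for the second (WT and HY), and all 4 of these 95% intervals, which cover counting error only, held 0.

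The strongest Yap1 site outside the gene's own promoters lay 38.3 kb upstream (chr9:8042397-8043271), at a promoter of 9230110C19Rik. It had a pileup of 37 at D0 and 19 at D8 in WT and 38 and 29 in HY. An intronic site 60.4 kb into the gene (chr9:7943514-7944397) had 15 at D0 and 26 at D8 in WT, 25 at D8 in HY and no peak in HY D0. Its log2 D8/D0 in WT was 1.11 (0.13 to 2.13), and 0.31 by the deposited fold. In contrast, an intronic site 44.1 kb into the gene (chr9:7960426-7960704) had 14 in WT D0 and 23 in HY D0 and no peak at D8. One weak site (chr9:7950281-7950443) had a peak in HY alone on both days, with 8 and 6.

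Wwtr1, encoding TAZ, had the highest promoter pileup of the 9 genes in every library. The summit 17 bp upstream (chr3:57378921-57380715) had a pileup of 75 and 58 in WT (D0 and D8) and 80 and 61 in HY, which is 114, 109, 113 and 123 times the background rate. The log2 D8/D0 was -0.06 in WT (-0.58 to 0.45) and 0.13 in HY (-0.38 to 0.63), so no difference between days was detectable at this depth. By the deposited fold the Wwtr1 promoter had 10.2 and 9.54 in WT (D0 and D8) and 9.55 and 8.79 in HY. The Tead4 promoter at the gene start had a higher fold in each, 10.8 and 11.6 in WT and 14.8 and 11.0 in HY.

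The sites around Wwtr1 went the other way from those of the targets. Wwtr1 was the only member with more sites at D8 than at D0 in both genotypes, 7 against 4 in WT and 10 against 7 in HY. In WT 1 of 8 sites was D0 only and 4 were D8 only. In HY 3 of 13 were D0 only and 6 were D8 only. The site 1.63 kb into the gene, in an intron (chr3:57378117-57378257), had 19 and 22 at D8 (WT and HY) and no peak in either D0 list. It lay beside the high promoter peak, in a local background 9.80 and 12.3 times the genome-wide rate, and its deposited -log10 q was 3.61 and 4.30, so a missing peak at D0 does not give a low pileup there. Sites 42.8 and 42.0 kb into the gene had 15 and 8 at D8 in WT and 7 and 11 at D8 in HY, and no peak at D0. A site at 48.5 kb, at a promoter of the gene Gm16016 (chr3:57331203-57331449), had 16 at D8 in WT and 7 and 19 in HY, a log2 D8/D0 of 1.96 in HY (0.65 to 3.45, or 1.22 by the deposited fold), and no peak in WT D0. Its -log10 q at D8 was 15.1 and 17.1. The D0-only share of Wwtr1, 12.5% in WT and 23.1% in HY, lay at percentiles 5.08 and 15.4 of the protein-coding genes with at least 8 sites, whose median was 40.0% in both genotypes. The strongest Wwtr1 site with a peak at D0 only in both genotypes (chr3:57354841-57354989) was weak, with 6 in WT and 8 in HY.

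**Figure D2:**
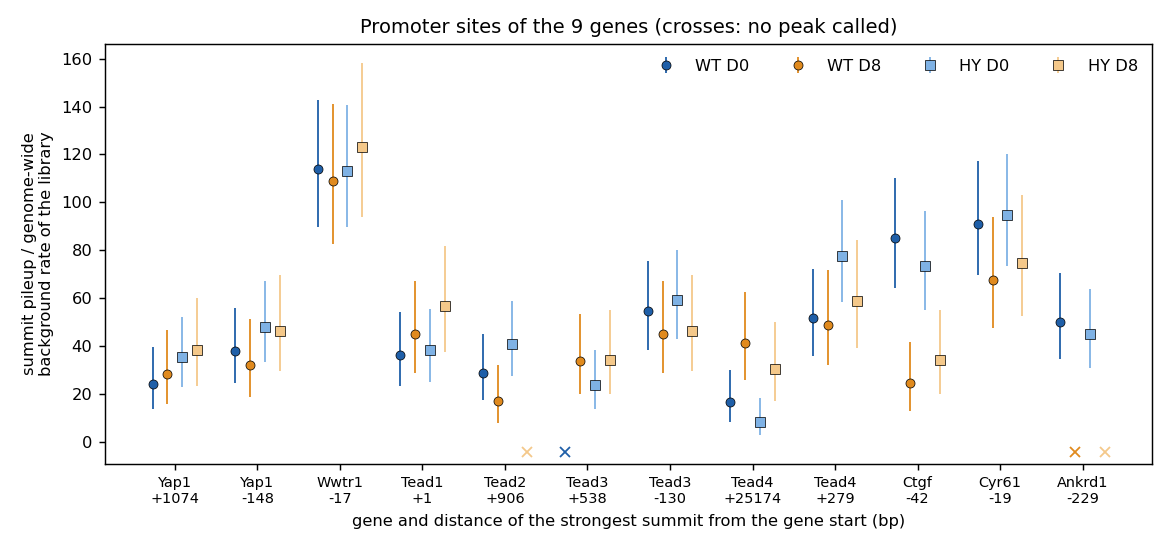
Summit pileup of each promoter site divided by the genome-wide background rate of its library (vertical axis), for the members' promoter sites in order along the horizontal axis, with circles for WT, squares for HY, blue for D0 and orange for D8. Bars are exact 95% Poisson intervals for counting error only, and crosses mark libraries with no called peak, as at the Ankrd1 promoter in both D8 libraries. Wwtr1 stays above 100 in all 4, whereas Ctgf goes from 85.0 to 24.5 in WT and from 73.5 to 34.4 in HY.

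Tead1, a TEAD factor expressed in many tissues, had the most sites, 34, of which 7 were reached only through a second, non-coding record of the same name. Its promoter site (chr7:119821973-119822958, in the 5′ UTR) had a pileup of 24 at D0 and 24 at D8 in WT and 27 and 28 in HY, with a log2 D8/D0 of 0.31 and 0.57 and both intervals across 0. The strong sites flanking the promoter did not share that. The site 17.9 kb into the gene (chr7:119840523-119841276, intronic) had 32 and 7 in WT (D0 and D8) and 36 and 9 in HY. Pileup there was 3.68-fold lower at D8 in WT, a log2 of -1.88 (-3.31 to -0.68), and 2.79-fold lower in HY, a log2 of -1.48 (-2.72 to -0.40). By the deposited fold these values were -1.18 and -0.98.

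Upstream of Tead1, 2 sites in an intron of 2310014F06Rik held TEAD hexamers and had high D0 peaks. The one 23.1 kb upstream (chr7:119799533-119800284), whose sequence is given above, had 32, 12, 32 and 14 in WT D0, WT D8, HY D0 and HY D8, a log2 D8/D0 of -1.10 in WT (-2.20 to -0.11) and -0.67 in HY (-1.69 to 0.27). The other, 15.9 kb upstream (chr7:119806520-119807483), had 35, 18, 35 and 14. An intronic site 41.0 kb into the gene (chr7:119863646-119864617), with both a TEAD hexamer and an AP-1 motif, had 25 in WT D0, 33 in HY D0 and 14 in HY D8 and no peak in WT D8. The strongest site with a peak at D0 only in both genotypes lay 1.68 kb into the gene in an intron (chr7:119824418-119824690), with 13 in WT and 25 in HY. It lay in the promoter window of another gene, in a local background 4.48 and 5.88 times the genome-wide rate. Its -log10 q was 3.27 and 9.67, and the missing peak at D8 does not give a low pileup there.

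Further along Tead1 the direction was opposite at a few sites. The site 204754 bp from the gene start (chr7:120027476-120027815) had 7 at D0 and 16 at D8 in WT and 6 and 12 in HY, a log2 D8/D0 of 1.5 in WT (0.14 to 3.03) and 1.52 in HY (-0.01 to 3.22). Upstream, a site in the intron of 2310014F06Rik (chr7:119788202-119788470) had a peak at D8 only, with 14 in WT and 8 in HY. The strongest distal site (chr7:119904067-119904636, intronic) differed between the genotypes at D0, with 16 in WT and 45 in HY, a log2 HY/WT of 1.39 (0.54 to 2.31), and had 9 and 13 at D8. One intronic site (chr7:119861338-119861490) had a peak in WT alone on both days, with 18 and 11.

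Tead2, a TEAD factor of the early embryo and neural tissue, had 10 sites, of which 1 was nearest to a Tead2 TSS. Its promoter site (chr7:52471087-52472167, at the 5′ UTR) had a pileup of 19 in WT D0, 9 in WT D8 and 29 in HY D0 and no peak in HY D8. The log2 D8/D0 in WT was -0.77 (-2.09 to 0.45). The strongest distal site, 33.3 kb upstream and nearest to Pth2 (chr7:52437476-52437901), had 18, 22, 30 and 19 in WT D0, WT D8, HY D0 and HY D8. A site in Ccdc155 (chr7:52453876-52454100) had 16 in WT D0, 19 in HY D0 and 4 in HY D8, with a log2 D8/D0 in HY of -1.73 (-3.74 to -0.14), and no peak in WT D8. The strongest site with a peak at D0 only in both genotypes (chr7:52452469-52452653) had 10 in WT and 7 in HY.

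Tead3, a TEAD factor first described in placenta, had 17 sites. Its main promoter site 130 bp upstream (chr17:28487667-28488361) had a pileup of 36 and 24 in WT (D0 and D8) and 42 and 23 in HY, with a log2 D8/D0 of -0.27 and -0.35 and both intervals across 0. A second promoter site 538 bp downstream (chr17:28486954-28487458) had 18 at D8 in WT, 17 on each day in HY and no peak in WT D0. The highest site outside the Tead3 promoters (chr17:28449831-28450781), at the promoter of Fance, had 62 and 56 in WT (D0 and D8) and 78 and 58 in HY. Within the gene, the site at 9.63 kb (chr17:28477540-28478514) had 52, 21, 39 and 19, a log2 D8/D0 of -1.0 in WT (-1.80 to -0.24) and -0.52 in HY (-1.39 to 0.31). The deposited fold gave the opposite sign in both genotypes, 0.24 in WT and 0.41 in HY. The intronic site at 6.38 kb (chr17:28481251-28481418) had 27 in WT D0 and 24 in HY D0 and no peak at D8. Its local background at D0 was 11.1 and 7.85 times the genome-wide rate. The site 43.5 kb upstream, nearest to Tulp1 (chr17:28530697-28531660), had 33 in WT D0, 41 in HY D0 and 8 in HY D8, a log2 D8/D0 of -1.84 in HY (-3.14 to -0.73, or -1.0 by the deposited fold), and no peak in WT D8.

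Tead4, which is best known from muscle and the trophectoderm, was the regulator with the largest share of D0-only sites, 7 of 10 in each genotype (70.0%), at percentiles 91.2 and 94.2 of coding genes. None of its sites was D8 only. The promoter at the gene start (chr6:128249903-128251136) had a pileup of 34 at D0 and 26 at D8 in WT and 55 and 29 in HY and log2 D8/D0 values of -0.08 and -0.41, both with intervals across 0. An internal promoter, 72 bp before a TSS that lies 25.2 kb into the gene (chr6:128225488-128225887), had 11 and 22 in WT (D0 and D8) and 6 and 15 in HY. Both genotypes were higher there at D8, by 2.48-fold in WT, a log2 of 1.31 (0.21 to 2.50), and 3.58-fold in HY, a log2 of 1.84 (0.39 to 3.49). The deposited fold gave 0.74 and 1.07.

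The Tead4 intron between those promoters held the opposite case. The site at 14.9 kb (chr6:128235833-128236264), whose window above holds CATTCC and TGATTCA, had 18 at D0 and 5 at D8 in WT and 22 and 8 in HY, with a log2 D8/D0 of -1.54 in WT (-3.32 to -0.05) and -0.94 in HY (-2.32 to 0.28). The site at 35.4 kb (chr6:128215218-128215703) had 8 in WT D0 and 28 in HY D0, a log2 HY/WT of 1.70 (0.53 to 3.05), and no peak at D8. Upstream, a site in an exon of Tulp3 (chr6:128284402-128284705) had 11 in each D0 library and no peak at D8.

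Ctgf, encoding the matricellular protein CTGF (CCN2), was the most D0-restricted of the 9 genes. Of its 10 sites with a peak in WT 9 were D0 only, and of the 10 in HY 8 were, at percentiles 99.2 and 98.0 of coding genes with at least 8 sites. The promoter site (chr10:24315098-24315898, overlapping an exon of the non-coding gene Gm15270) had its summit 42 bp upstream and a pileup of 56 and 13 in WT (D0 and D8) and 52 and 17 in HY. The D0 and D8 values did not overlap. Pileup was 3.47-fold lower at D8 in WT, a log2 of -1.80 (-2.79 to -0.91), and 2.14-fold lower in HY, a log2 of -1.09 (-1.98 to -0.28). The local background around the summit, the caller's estimate of signal in the surroundings, was lower at D8 as well, at 8.66 and 2.02 times the genome-wide rate in WT and 7.43 and 3.21 times in HY. The deposited fold, which divides by that local background, was therefore less different between days, with a log2 of -0.33 in WT and -0.28 in HY.

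No other Ctgf site had a peak in WT D8, and 1 other had one in HY D8. That site, 14.2 kb upstream in an intron of Gm15270 (chr10:24300765-24301188), had 26 at D0 in WT and 17 and 7 in HY (D0 and D8). The strongest site with a peak at D0 only in both genotypes, 41.1 kb upstream (chr10:24273957-24274309), had 17 and 22. A site 5.93 kb upstream (chr10:24309158-24309550), with both a TEAD hexamer and an AP-1 motif, had 14 and 16. The rest of the 15 sites had at most 17, and 10 of the 15 were seen in 1 library alone, among them a WT site and an HY site about 23 kb upstream that lay side by side without sharing a base.

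Cyr61, encoding the related protein CYR61 (CCN1), had the highest local background of the 9 genes' promoters. The local background at its promoter was 29.0 and 29.2 times the genome-wide rate at D0 in WT and HY, above 99.93% of sites in both libraries, and 14.7 and 18.3 times at D8. The promoter site (chr3:145312659-145313105, summit 19 bp upstream) had a pileup of 60 at D0 and 36 at D8 in WT and 67 and 37 in HY. Both D8 values lay below both D0 values before scaling. After scaling the log2 D8/D0 was -0.43 in WT (-1.06 to 0.19) and -0.34 in HY (-0.96 to 0.26), both with intervals across 0, and the deposited fold over the local background gave the opposite sign, 0.47 and 0.27. The direction at this promoter thus depended on whether the surroundings were divided out.

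Further sites stood close to the Cyr61 promoter. The one 1.86 kb upstream (chr3:145314397-145315427, at an exon of Gm17501), which holds a CArG box, the element bound by SRF, and an AP-1 motif, had 52 in WT D0, 22 in WT D8 and 58 in HY D0 and no peak in HY D8, with a log2 D8/D0 of -0.93 in WT (-1.72 to -0.18). By the deposited fold that value was -0.02, so the decrease was seen in the pileup and not over the local background. The one 3.43 kb upstream (chr3:145315934-145316758), also with a CArG box, had 49, 32, 58 and 34. Downstream, a site at 3.69 kb (chr3:145309167-145309288) had 38 in WT D0 and 33 in HY D0 and no peak at D8. Since a peak must exceed its local background, a missing peak in this stretch does not give a low pileup: 2 sites called in HY D8 alone had pileups of 29 and 22, while the WT D8 list had no peak at either.

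The farther Cyr61 sites lay in a lower local background. The site 35.3 kb upstream (chr3:145347673-145348527) had 41 and 11 in WT (D0 and D8) and 42 and 18 in HY, a log2 D8/D0 of -1.59 in WT (-2.70 to -0.60, or -0.86 by the deposited fold) and -0.70 in HY (-1.59 to 0.12). The site 26.5 kb upstream (chr3:145339230-145339740) had 19 in WT D0, 29 in HY D0 and 6 in HY D8, a log2 of -1.75 in HY (-3.31 to -0.46), and no peak in WT D8. A site 35.0 kb downstream of the gene start (chr3:145277580-145278285) had 32 in WT D0, 17 in HY D0 and 8 in HY D8 and no peak in WT D8. One site (chr3:145354974-145355432) had a peak in HY alone on both days, with 11 and 9. In WT 9 of 13 Cyr61 sites were D0 only, at percentile 90.7 of coding genes, and in HY 6 of 16, at percentile 43.1.

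Ankrd1 encodes a cardiac and muscle ankyrin repeat protein and is a sharply YAP-responsive gene in many cultures. Its promoter (chr19:36194240-36194853, summit 229 bp upstream) had a pileup of 33 in WT D0 and 32 in HY D0 and no peak in either D8 list. No other member promoter lacked a peak at D8 in both genotypes. Among 22225 coding-gene names 670 (3.01%) had a peak at D0 only in both genotypes, 112 (0.504%) at D8 only in both, and 10938 (49.2%) in all 4 libraries. The local background at D0, 3.50 and 2.81 times the genome-wide rate, was moderate.

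The highest distal site of Ankrd1, 9.94 kb upstream (chr19:36203548-36204508, with a CArG box), had 37 in WT D0, 51 in HY D0 and 9 in HY D8 and no peak in WT D8. In HY it was 3.96-fold lower at D8, a log2 of -1.98 (-3.19 to -0.95), the largest decrease in depth-scaled pileup among the members' sites with a peak on both days in that genotype. By the deposited fold it was -0.89, less than at other member sites such as the Cyr61 site 26.5 kb upstream (-1.38). The strongest distal site with a peak at D0 only in both genotypes (chr19:36239892-36240174) had 8 in WT and 17 in HY. The one site with a peak in all 4 libraries lay 36.1 kb away, nearest to Rpp30 (chr19:36157459-36158479), and had 26, 12, 27 and 17. In WT 7 of 8 sites were D0 only, at percentile 98.4 of coding genes, and in HY 2 of 4 were.

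**Figure D3:**
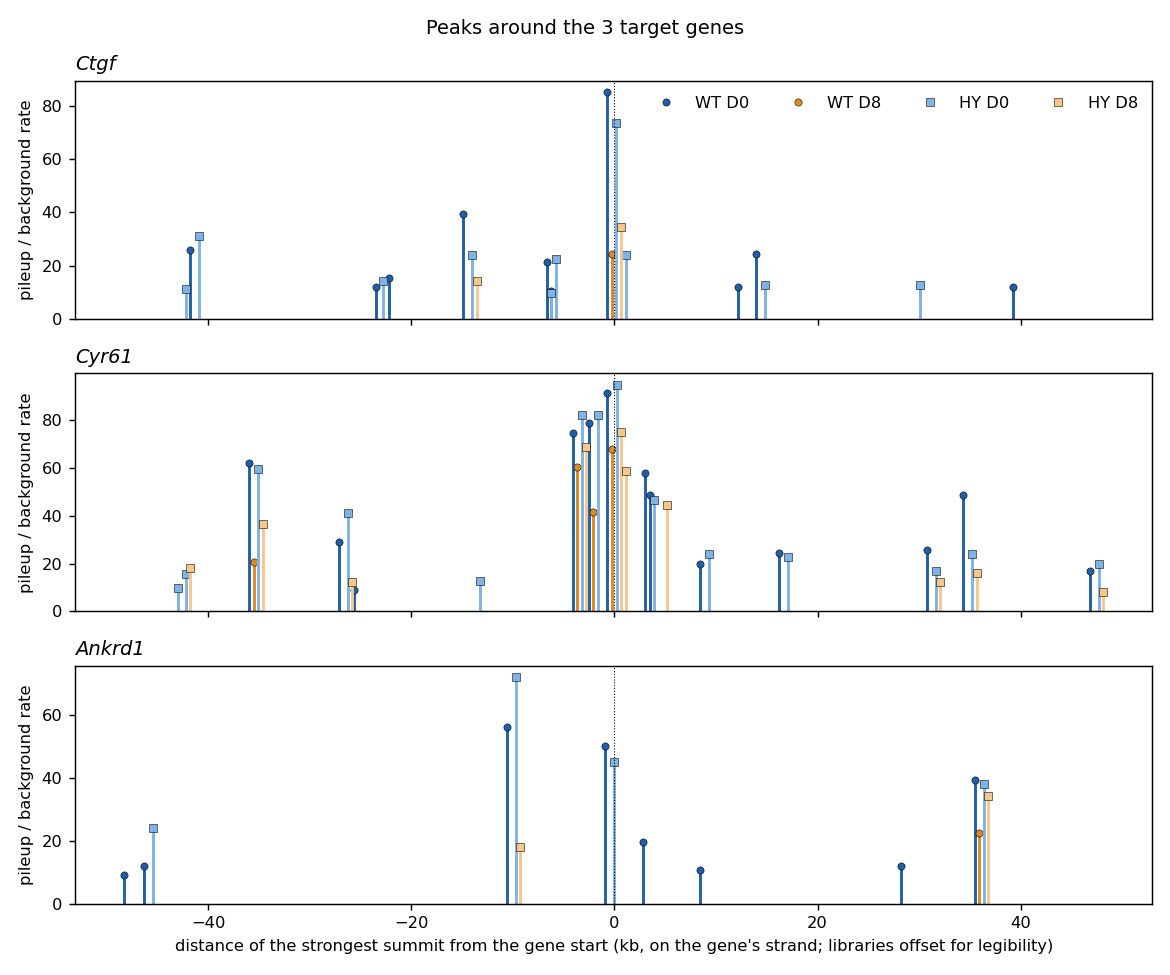
Depth-scaled summit pileup (vertical axis, pileup divided by the background rate of the library) of every peak around Ctgf, Cyr61 and Ankrd1 against the distance of the site's strongest summit from the gene start (horizontal axis, kb). Blue lines mark D0 and orange lines D8, with circles for WT and squares for HY. Most blue lines have no orange neighbour, and most orange lines are around Cyr61, where WT has 4 and HY 10 sites at D8.

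The genotypes were compared at each day. At D0 19 of 117 member sites had a peak in WT alone (16.2%) and 22 in HY alone (18.8%), beside 11.7% and 20.4% of all sites. At D8 8 of 76 were WT only (10.5%) and 25 were HY only (32.9%), beside 9.58% and 24.6%. The HY D8 list was the longer D8 list and reached a lower pileup, and the cultures also differed in their chromosome Y peaks. The part of these in the genotype values was not tested. Within lists of equal length 17 of 68 sites were HY only at D8 and 11 WT only, beside 16.9% and 14.7% of all sites.

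The HY-only D8 sites were most frequent around the targets, where they were 9 of 15. At Cyr61 7 of 11 D8 sites were in HY alone. Of these 7, 4 were D0 sites of both genotypes with a low peak in HY D8, such as the one 47.5 kb downstream of the gene start, with 11 in WT D0, 14 in HY D0 and 4 in HY D8, and the one at 31.4 kb, with 17, 12 and 6. When only peaks with a deposited -log10 q of at least 5 were kept, D0-only shares at the targets were 16 of 21 in WT (76.2%) and 16 of 23 in HY (69.6%), closer to each other than the 80.6% and 53.3% given above for all peaks, beside 49.7% and 49.3% of all sites at that minimum. Where both genotypes had a peak, HY was higher than WT by a median log2 of 0.07 at D0 (76 sites) and 0.19 at D8 (43 sites), beside 0.08 and 0.15 over all sites. With scaling by the background rate all 5 target sites shared at D8 were higher in HY, beside 19489 of all 28646 shared sites. The log2 values of the 5 were 0.14 to 0.81, and each of the 5 intervals held 0. With scaling on promoters 4 of the 5 were higher, the Cyr61 promoter being at -0.01, and by the deposited fold 3 were, that promoter being at -0.15 and the site 3.43 kb upstream of it at -0.11.

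**Figure D4:**
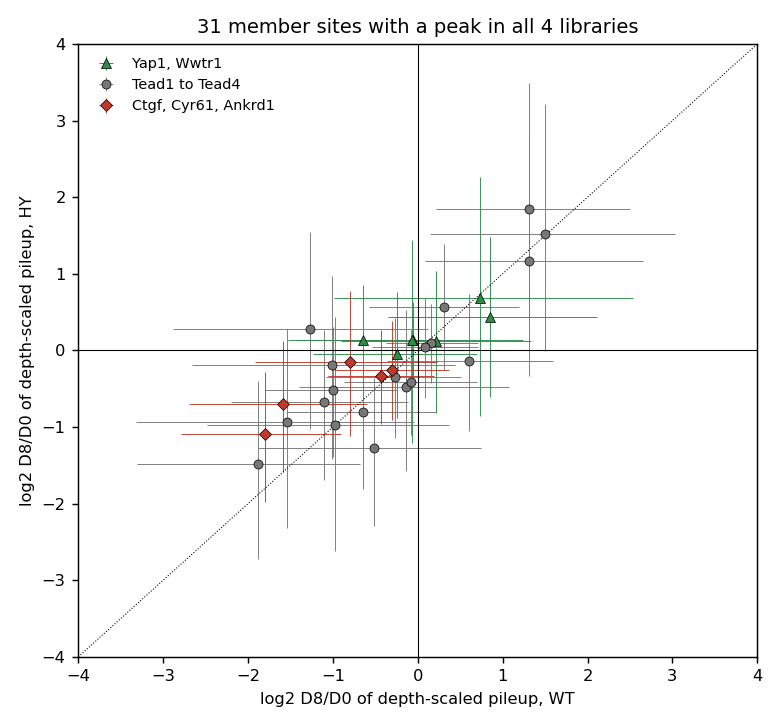
Log2 D8/D0 of the depth-scaled summit pileup in WT (horizontal axis) against HY (vertical axis) for the 31 member sites with a peak in all 4 libraries, with exact 95% intervals for counting error only. The dotted line marks equal values. The 5 target sites (red) lie below 0 on both axes, from -1.80 to -0.30 in WT, while the coactivator and TEAD sites lie on both sides of 0. By the deposited fold, which is not plotted, 2 of the 5 would lie above 0 on both axes, the Cyr61 promoter (0.47 and 0.27) and the Cyr61 site 3.43 kb upstream (0.58 and 0.37).

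The rest of the pathway was read from lists of other genes chosen for their textbook roles. The 20 other Hippo genes, among them the kinases Stk3, Stk4, Lats1 and Lats2, their scaffolds Sav1, Mob1a and Mob1b and the upstream regulator Nf2, had 257 sites, of which 50.3% in WT and 49.3% in HY were D0 only and 8.54% and 10.3% D8 only. The D0-only shares were near the 49.7% and 46.5% of all sites, and the D8-only shares lay below the 12.3% and 13.7%. Promoters of 16 of the 20 genes had a peak in all 4 libraries. The exceptions were Wwc1, a kinase scaffold gene, with 8 in WT D0, 12 in HY D0 and no peak at D8, Vgll2 and Fat4, with a peak in WT D0 alone, and Dchs1, with none. Of the 16, 11 in WT and 8 in HY were lower at D8 after scaling and 5 and 8 were higher, with 1 and 0 at least 2-fold lower and 0 and 1 at least 2-fold higher. Among all promoter sites with a peak on both days 6380 of 11500 in WT and 6003 of 12068 in HY were lower. The promoter of Vgll3, a TEAD cofactor gene, had 60 at D0 and 21 at D8 in WT and 71 and 27 in HY.

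The 19 other YAP/TAZ target genes had 288 sites, with 54.3% in WT and 50.6% in HY D0 only and 12.1% and 13.6% D8 only, beside 49.7% and 46.5% and 12.3% and 13.7% of all sites. At sites with a peak on both days 30.7% in WT and 23.9% in HY were at least 2-fold lower at D8, beside 13.3% and 15.5% of all sites and 15.9% and 23.3% for the other Hippo genes. Promoters of 17 of the 19 had a peak in all 4 libraries. After scaling 12 of the 17 in WT and 10 in HY were lower at D8, 5 and 2 of them at least 2-fold, and 5 and 7 were higher, 1 in each at least 2-fold. Of all promoter sites with a peak on both days, 6380 of 11500 in WT and 6003 of 12068 in HY were lower. The examples that follow were chosen after their values were seen. F3, the tissue factor gene, had 59, 24, 65 and 24 in WT D0, WT D8, HY D0 and HY D8, Rbms3 had 42, 10, 38 and 13, Tgfb2 had 40, 14, 43 and 15, and Arhgef17 had 56, 19, 65 and 25. Nt5e, encoding CD73, went the other way at its promoter, with 18, 36, 23 and 40, although 6 of its 9 sites were D0 only in both genotypes. The promoters of Crim1, Gadd45a, Ccdc80 and Dock5 were higher at D8 in both genotypes too, by less than 2-fold.

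Motif matches were counted within 100 bp of the strongest summit. A TEAD hexamer was found at 26 of 140 member sites (18.6%, exact binomial interval 12.5 to 26), beside 16.4% of all 82944 sites within 50 kb of a TSS, a share that this interval holds. By gene, 7 of these sites belonged to Tead1, 4 each to Tead3, Ctgf and Cyr61, 2 each to Yap1, Tead4 and Ankrd1, 1 to Wwtr1 and 0 to Tead2. Among the members, 5 of 31 sites with a peak at D0 only in both genotypes, 10 of 31 with a peak in all 4 libraries and 1 of 7 with a peak at D8 only in both held it, beside 21.3%, 12.0% and 12.3% of all sites of these classes. The exact interval for the 10 of 31 (16.7% to 51.4%) lay above 12.0%, and those of the other classes held the share of all sites. At distal sites alone 4 of 16 with a peak in all 4 libraries held it (exact interval 7.27% to 52.4%), an interval that holds the 16.6% of all distal sites in that class. The AP-1 motif was found at 30 of 140 (21.4%, beside 20.3%), both motifs together at 6, and the CArG box at 5 (3.57%, 1.17 to 8.14, beside 1.45%).

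Across all distal sites of the series within 50 kb of a TSS the hexamer was more frequent where the peak was at D0 only. It was found at 22.0% of 17626 sites with a peak at D0 only in both genotypes, 16.6% of 11149 with a peak in all 4 libraries and 12.6% of 4682 with a peak at D8 only in both, with exact intervals that did not overlap. AP-1 ran the same way, at 31.8%, 23.5% and 7.26%. C/EBP (TTGCNNAA) ran the opposite way, at 8.53%, 12.6% and 26.9%, and EBF (CCCNNGGG) was found at 7.85%, 12.3% and 13.4%. The median GC content of these 3 classes was 48.8%, 52.7% and 49.8%. All motifs were searched on both strands, and a match is a description of letters, not of binding.

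**Figure D5:**
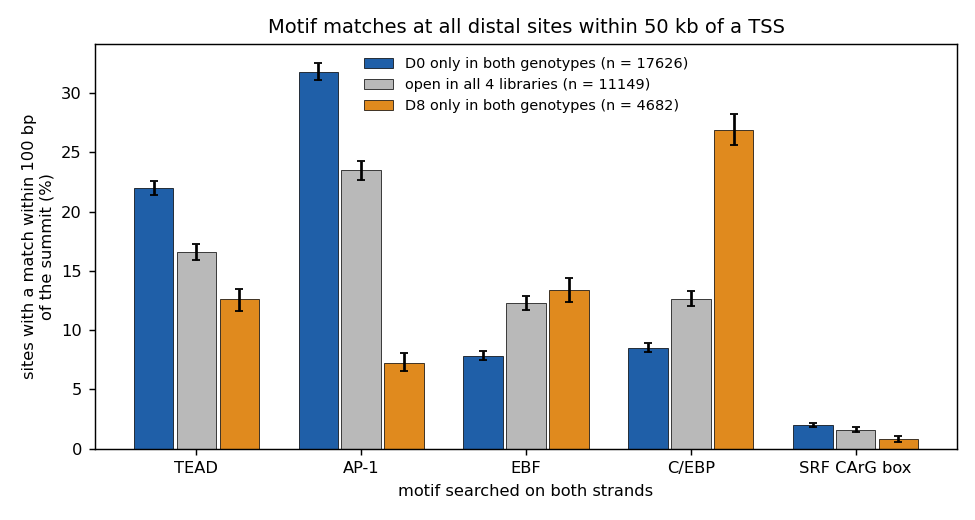
Share of distal sites with a motif match within 100 bp of the summit (vertical axis, percent) for each motif (horizontal axis), over all sites of the series within 50 kb of a TSS, for sites with a peak at D0 only in both genotypes (blue), in all 4 libraries (grey) and at D8 only in both genotypes (orange). Bars carry exact 95% binomial intervals. The TEAD hexamer goes from 22.0% to 12.6% and AP-1 from 31.8% to 7.26% between the blue and orange bars.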

How the data were processed

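ATAC-seq libraries were made by the authors with a kit (Active Motif) and sequenced on a NovaSeq instrument, 1 per genotype and day. The labels name Bowtie2, SAMtools, Picard and deepTools and the mm9 build. Versions, the calling threshold and the Tn5 offset are not given in the sources used here. Peaks were called per library. The authors deposited a fold (a ratio of summit pileup to local background, with a pseudocount of 1), −log10 p, −log10 q and a score that was not used, and none was normalised between libraries. Pileup and background were solved from fold and −log10 p, with a tolerance of 0.002, for 100% of peaks, against 0.960% to 1.60% with p shuffled. The files give no read totals, and the approximate reads per sample in the study's methods were not used. The solver, the intervals and the merging were checked on simulated data. Intervals are exact 95% conditional binomial (ratios), Poisson or binomial ones and cover counting error only. Annotation and sequence were NCBIM37 (mm9) with GENCODE, and 0 chromosomes had peaks beyond their end. Named sites were all promoter sites and, for each gene, the strongest other, D0-only, D8-only and 1-genotype sites. Further sites, and the genes named from the other lists, were chosen after their values were seen. Members and gene lists were chosen with earlier results of these data known. The merge rule, q minimum, list length, window, scaling, measure and motif window were varied. Python 3.11.15, pandas 2.3.3, NumPy 2.4.6, SciPy 1.17.1 and Matplotlib 3.10.9 were used.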

Additional observations from a re-analysis of the deposited data

Results flagged for a closer look

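At 4 named sites the libraries of one genotype or day moved opposite to those of the other. These differences between differences were not tested, and no pair of intervals for counting error left out 0 on both sides. The Yap1 site 38.3 kb upstream had a log2 D8/D0 of -0.65 in WT and 0.13 in HY, and a log2 HY/WT of -0.06 at D0 and 0.71 at D8. By the deposited fold the day values were -0.62 and -0.02, no longer opposite, while the genotype values stayed so. The Wwtr1 promoter had -0.06 and 0.13 between days and -0.01 and 0.18 between genotypes. Between days it had 0.04 and 0.19 with scaling on promoters and -0.09 and -0.12 by the fold, and between genotypes -0.09 and -0.12 by the fold, so that its opposite signs depended on the measure. The Tead2 site 33.3 kb upstream had 0.60 and -0.14 between days and 0.63 and -0.11 between genotypes. The Ctgf promoter had a log2 HY/WT of -0.21 at D0 and 0.49 at D8, and 0.00 and 0.04 by the fold. At the Tead2 site the signs stayed opposite under both alternatives.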

How the results depend on the processing

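Of 55 alternatives for counts, medians and the motif share 27 stayed within 1.5 times the count or within the spread, and no median changed sign. The directions of the target sites, given in the report, are not counted here. Of 156 for named sites 151 moved by less than the counting interval, and at those sites no ratio whose interval left out 0 changed sign. Among the other sites with such an interval, tried after seeing the data, the Tead3 site at 9.63 kb reversed in WT, with 0.24 by the deposited fold, and the rest kept their direction. With lists of equal length the D0-only sites were 18 in WT and 17 in HY, below the 19 and 26 D8-only ones. At D0 9 of 57 were then WT only and 7 HY only (15.8% and 12.3%, beside 13.5% and 14.7% of all sites). The targets, tried in this way after seeing the data, had 11 and 8 D0-only sites in WT and HY with equal lists and 16 in WT with a -log10 q of at least 5. That q minimum gave 9 WT-only sites at D0 and 15 HY-only sites at D8. Under a rule that 1 peak must cover 50% of another, 36 HY peaks at D0 and 39 at D8 were HY only. Within 10 kb of a TSS there were 16 D0-only and 4 D8-only sites in WT, 17 and 5 in HY, 5 WT-only and 6 HY-only at D0 and 3 and 4 at D8. Within 100 kb there were 87 and 26 in WT, 87 and 41 in HY, and 35 HY-only at D0. The median log2 D8/D0 of the members was -0.66 in WT and -0.74 in HY without depth scaling, and -0.09 in WT from the deposited fold. By that fold the Ctgf promoter had -0.33 in WT, the Cyr61 promoter 0.47 and 0.27, the Cyr61 site 1.86 kb upstream -0.02 in WT and the Ankrd1 site 9.94 kb upstream -0.89 in HY. The cause of these shifts was not tested, except that a smaller or larger window holds fewer or more sites. Scaling by promoters moved D8/D0 by 0.10 in WT and 0.07 in HY and HY/WT by -0.12 at D0 and -0.16 at D8 for every site. The TEAD hexamer share within 50 bp was 10.7%, beside 9.26% of all sites. No paired fit was made. The day pairs of the 2 cultures differ in genotype and are given side by side. Pileups of 4 or 5 at the lower end limit every call to sites above that level.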
